A study of Mus musculus with 4 samples.

Results

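The smooth muscle calcium handling genes examined here are 10 genes, *Cacna1c*, *Cacna1h*, *Cacnb2*, *Ryr2*, *Ryr3*, *Atp2a2*, *Atp2b4*, *Pln*, *Casq2* and *Stim1*, of 21938 protein-coding genes in GENCODE vM21. They were chosen by name, with earlier results of these data known. Their accessible chromatin was taken as every ATAC-seq peak that lies in the gene body or within 20 kb of it. The data are 4 lists of peaks from mouse aortic nuclei at P60, 1 list for each library. Control aorta (*Col3a1*+/+) and VEDS aorta (*Col3a1*G938D/+, a heterozygous glycine substitution that models vascular Ehlers-Danlos syndrome) each had 1 female and 1 male library. Each library pooled the tissue of 2 mice of the same sex, and the mice were on a C57BL/6J background, with no drug treatment named in the labels. The kit was one for single nuclei, but each library was analyzed in aggregate, so that all cell types of the aortic wall contribute to a list. In ATAC-seq, the transposase Tn5 cuts accessible DNA, and a peak is a stretch where the cut fragments pile up above the local background of the same library.

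Contraction of vascular smooth muscle cells is set by calcium in the cytosol. Calcium enters through voltage-gated L-type and T-type channels and is released from the sarcoplasmic reticulum through ryanodine receptors and inositol trisphosphate receptors. It is then pumped back into the store by SERCA or out of the cell by plasma membrane pumps, while a store sensor opens entry channels in the plasma membrane when the store is empty. Serum response factor binds CArG boxes, together with its coactivator myocardin, at many smooth muscle contractile genes, and MEF2 factors bind an A- and T-rich site at many muscle genes. The AP-1 factors of the FOS and JUN families bind a short site that is frequent in accessible chromatin away from promoters.

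The 3 windows of sequence that best show what was found at these genes are the sole peak at *Pln*, the peak upstream of *Ryr2* that was listed in 3 of 4 libraries, and the highest peak of *Cacnb2*. Each is read 5′ to 3′ from the reference genome (GRCm38, the same build as mm10) on the strand of the gene, with the match in capitals. The *Pln* peak lies on the plus strand at chr10:53336448-53336700 upstream of the gene, and its capitals mark a CArG box. The *Ryr2* stretch is the minus strand of chr13:12125151-12125350, an upstream region, and its capitals mark an AP-1 site. The *Cacnb2* stretch is the plus strand of chr2:14641105-14641404 in intron 2, and its capitals mark a MEF2 site.
Pln upstream peak: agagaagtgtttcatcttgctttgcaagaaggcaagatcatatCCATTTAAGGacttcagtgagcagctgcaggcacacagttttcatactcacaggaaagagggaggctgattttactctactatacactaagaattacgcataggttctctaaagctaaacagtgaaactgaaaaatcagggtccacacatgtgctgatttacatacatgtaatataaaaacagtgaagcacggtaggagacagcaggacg
Ryr2 upstream peak: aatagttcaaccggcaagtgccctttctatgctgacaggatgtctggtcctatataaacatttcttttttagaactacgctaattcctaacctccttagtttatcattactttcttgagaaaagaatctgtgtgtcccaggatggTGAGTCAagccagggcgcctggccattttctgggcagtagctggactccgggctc
Cacnb2 intron 2 peak: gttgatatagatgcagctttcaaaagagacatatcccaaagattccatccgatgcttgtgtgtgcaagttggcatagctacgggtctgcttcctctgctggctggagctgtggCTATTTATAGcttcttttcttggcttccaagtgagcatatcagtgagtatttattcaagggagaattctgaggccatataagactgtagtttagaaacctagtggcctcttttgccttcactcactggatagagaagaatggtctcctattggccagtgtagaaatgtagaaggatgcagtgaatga

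The lists differed widely in length, and this sets what can be read from them. The control female list had 21176 peaks, the control male 1236, the VEDS female 504 and the VEDS male 41444. The control female and VEDS male lists are called the long lists below, and the other two the short lists. The pileup, the number of fragments at the summit of a peak, was recovered from the deposited values. The median pileup was 14 (control female), 7 (control male), 6 (VEDS female) and 22 fragments (VEDS male). In the control male list 68.8% of the peaks were mostly repeats, with more than 50% of their bases masked in the reference, while the VEDS female list had 27.4%, the control female 3.90% and the VEDS male 5.09%. Genotype, sex, depth and list length cannot be told apart in these 4 libraries. The genotypes were not tested against each other, since 2 libraries a genotype allow no two-sided exact permutation p below 0.333. A region without a peak was not read as closed. The marker genes of smooth muscle were accessible in both long lists, since a peak lay within 3 kb of a start of 9 of the 10 in the control female list and of all 10 in the VEDS male. Such promoter peaks lay at 1 and 4 of 8 markers of endothelium, 4 and 3 of 7 of fibroblasts and 1 and 4 of 6 of adipocytes. The counts were 0 and 1 of 6 for immune cells, 1 and 2 of 5 for neurons and Schwann cells, and 2 and 4 of 10 for skeletal muscle. Over all protein-coding genes the shares with a promoter peak were 47.4% (control female) and 58.5% (VEDS male). Several of the counts lay near these shares, and the lists are short, so they were not read as a contrast between cell types. Of the 10 cardiac markers, *Tnni3*, *Myl4* and *Ryr2* had a promoter peak in both long lists, and *Tnnt2*, *Actc1*, *Nkx2-5* and *Sln* had no peak in their windows in either. The markers without a promoter peak in either long list were *Myh6*, *Tnnt2*, *Myl7*, *Actc1*, *Nkx2-5*, *Myl2* and *Sln* (cardiac muscle), *Acta1*, *Myh4*, *Myh1*, *Atp2a1*, *Ryr1* and *Cacna1s* (skeletal muscle), *Cdh5*, *Cldn5*, *Egfl7* and *Sox17* (endothelium), *Dcn*, *Lum* and *Pi16* (fibroblasts), *Ptprc*, *Cd68*, *Cd3e*, *Cd79a* and *Spi1* (immune cells), *Adipoq* and *Ucp1* (adipocytes) and *Sox10*, *Syt1* and *Rbfox3* (neurons and Schwann cells).

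Peaks were listed at 6 of the 10 genes for control female aorta, at 1 for control male, at 1 for VEDS female and at 7 for VEDS male. For comparison, 64.1% of all protein-coding genes had a peak in the same kind of window in the control female list, 4.61% in control male, 3.20% in VEDS female and 73.5% in VEDS male. The counts for the 10 genes were near these shares in both long lists. The genes with a peak in both long lists were *Cacna1c*, *Cacnb2*, *Ryr2*, *Atp2a2*, *Atp2b4* and *Stim1*. *Pln* had a peak in the VEDS male list alone. *Cacna1h*, *Ryr3* and *Casq2* had no peak in any of the 4 lists.

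The windows held 39 peaks in the control female list, 1 in control male, 1 in VEDS female and 76 in VEDS male. Overlapping peaks merged into 79 regions, of which *Cacna1c* had 34, *Ryr2* 12, *Atp2b4* 9, *Stim1* 9, *Cacnb2* 7, *Atp2a2* 7 and *Pln* 1. Both long lists held 37 of these regions, the VEDS male list alone 39, the control male list alone 1, and the control female list 2 that the VEDS male lacked. The last 2 lie in intron 2 of *Cacnb2* and intron 1 of *Ryr2*.

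Most of the peaks lay inside introns. Peaks in an intron and away from the promoter of any coding gene were 24 of 39 in the control female list (61.5%, 95% Wilson interval 45.9% to 75.1%) and 51 of 76 in the VEDS male (67.1%, 55.9% to 76.6%). These intervals, and those below, cover counting error only. The share of intron peaks over all peaks of a list was not computed. The intron shares were thus not read as a trait of these genes. Within 3 kb of a start of the gene itself lay 7 of 39 and 12 of 76 peaks. Another 4 of 39 and 5 of 76 lay at the promoter of a neighbouring coding gene. When a peak was counted only where the nearest annotated start of any gene is that of the gene itself, 20 control female and 38 VEDS male peaks were left. Peaks farther than 3 kb from any annotated start were 66.7% in the control female list and 71.1% in the VEDS male, where all peaks of these lists gave 43.3% and 53.3%. The windows take in whole gene bodies, and no share was computed for windows of like length. This difference was thus not read as a trait of these genes. The sequence at the summits was less GC-rich than in the lists as a whole, with a median of 51.3% against 56% in the control female list and 49.5% against 53.3% in the VEDS male. These medians are not matched for distance from a start, and the part of that distance was not tested.

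*Cacna1c* encodes the pore-forming subunit of the L-type calcium channel, the main route of voltage-gated calcium entry in arterial smooth muscle. The gene spans 609 kb at chr6:118587240-119196418 on the minus strand. Its window held 14 peaks in the control female list, 0 in control male, 0 in VEDS female and 34 in VEDS male. All 14 control female peaks overlapped a VEDS male peak, and the other 20 regions were in the VEDS male list alone. They were spread over the whole gene, and introns 1 and 3 (139 and 272 kb long) held 12 of the 14 control female and 26 of the 34 VEDS male peaks. The strongest in the control female list, chr6:118865948-118866299 in intron 3, had a −log10 q of 14.5, where q is the false discovery rate given by the peak caller, and ranked 5334 by that value in its list. The same region had a −log10 q of 20.5 in the VEDS male list, where the strongest *Cacna1c* peak was chr6:118791845-118792363, also in intron 3, with 22.4 and rank 11065. In the control female list that second region had a −log10 q of 5.08. A pair of peaks in intron 29, near the 3′ end of the gene, was in both long lists, and the one at chr6:118642034-118642232 had −log10 q values of 11.3 and 18.1. One of the higher peaks of intron 1, at chr6:119175028-119175684 (−log10 q of 12.4 in the control female list and 19.2 in the VEDS male), is the promoter of *Dcp1b*, a gene of mRNA decapping whose start lies within the intron. In rank, the strongest *Cacna1c* peaks stood 25.2% (control female) and 26.7% (VEDS male) of the way down their lists.

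The annotated starts of *Cacna1c* fall into 8 clusters, where starts within 500 bp of each other are joined. The first, used by 5 transcripts of which 4 are coding, had no peak within 500 bp in any of the 4 lists. The second lies 88.1 kb inside the gene and is used by 12 coding transcripts. It has 56 CpG dinucleotides in 500 bp and a GC content of 64.4%, against 6 and 47.4% at the first. Its peak, at chr6:119109049-119109362, was listed in the VEDS male library alone, 476 bp from the cluster, with a −log10 q of 8.59, a fold enrichment over local background of 4.82 and a pileup of 24 fragments. The promoter peak that counts for *Cacna1c* in the control female list was another, chr6:119077354-119077486, which lies 2521 bp from the start of another cluster with 1 coding transcript (−log10 q of 6.53). That region was also in the VEDS male list (8.13), which held 1 more within 3 kb of a start, at chr6:118708661-118708793, 1514 bp from the start of a noncoding transcript (4.43).

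*Cacnb2* encodes the β2 subunit, which brings the L-type pore to the membrane and sets its gating. The gene spans 385 kb at chr2:14603088-14987908 on the plus strand. Its window held 4 peaks in the control female list, 1 in control male, 0 in VEDS female and 5 in VEDS male. It thus held 7 regions, where *Cacna1c* held 34. The highest was the intron 2 peak printed above, with a −log10 q of 11.3 in the control female list (rank 7568) and 26.2 in the VEDS male (rank 9150). Next in intron 2 was a weak region near chr2:14807839-14808121, with 3.95 and 5.84. A peak in the control female list at chr2:14834853-14834978 in intron 2 (3.25, pileup 6) and a peak in the VEDS male list at chr2:14936597-14936777 in intron 3 (8.08, pileup 14) had no partner. The sole peak of the control male library at any of the 10 genes was here, at chr2:14891175-14892654 in intron 3. It is 1480 bp wide with a pileup of 5 fragments, a −log10 q of 2.49, rank 897 of 1236 and 45.7% of its bases masked as repeats, and no other list had a peak in it.

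*Cacnb2* has 9 start clusters, and 3 of them had a peak in the VEDS male list. The CpG-rich second cluster, with a GC content of 71% and the start of the longest coding transcript, had a peak in both long lists. The control female peak at chr2:14603995-14604245 had a −log10 q of 4.02 and a pileup of 8, and the VEDS male peak at chr2:14603958-14604718 had 16.8 and 29. The broad VEDS male peak also reached within 500 bp of the third cluster. The sixth cluster, 221 kb inside the gene, holds the starts of 2 transcripts, 1 of them coding, and a weak peak in the VEDS male list covered it, at chr2:14823822-14824177 with a −log10 q of 3.39 and a pileup of 9. The seventh, used by the most transcripts (7, of which 2 are coding), had none.

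*Cacna1h* encodes a T-type calcium channel, which opens at more negative voltages than the L-type. At chr17:25374285-25433783 on the minus strand it had 0 peaks in each of the 4 lists, and the nearest peak to the gene was 99990 bp away in the control female list and 88903 bp in the VEDS male. Its first start cluster is CpG-rich, with 54 CpG in 500 bp and a GC content of 71.4%. A CpG-rich start was thus also found without a listed peak.

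**Figure D1:**
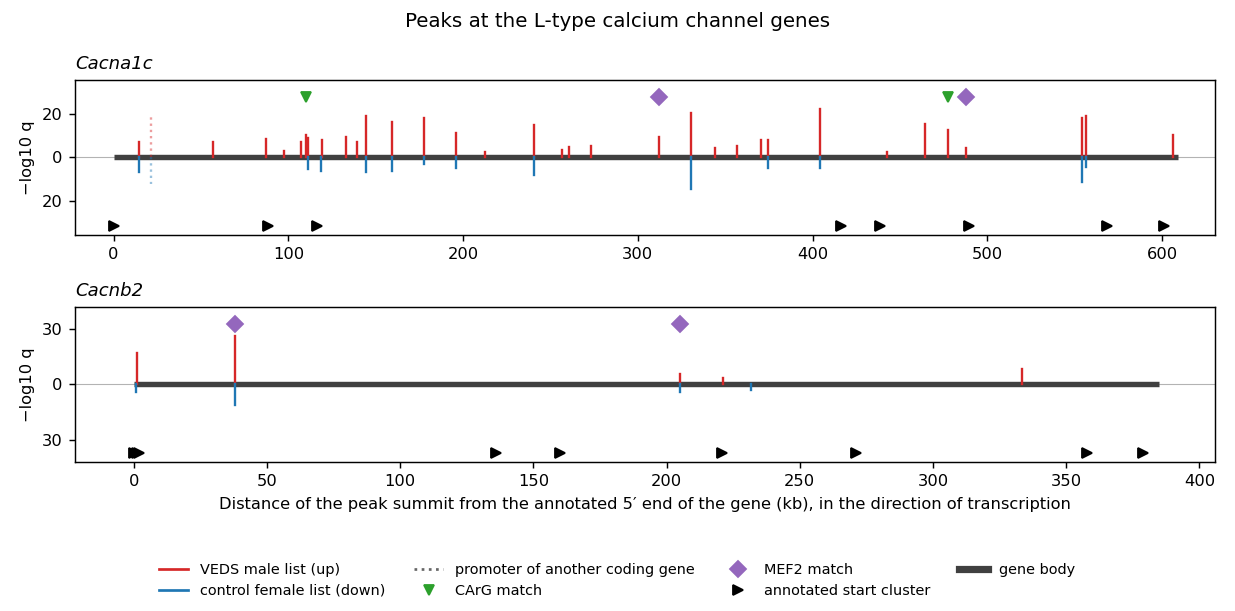
Peaks of the long lists at *Cacna1c* and *Cacnb2* by distance from the 5′ end of the gene (kb, horizontal) and −log10 q (vertical; VEDS male up, control female down), with start clusters, CArG and MEF2 matches. The 34 VEDS male peaks of *Cacna1c* are spread along the gene and all 14 control female peaks fall on some of them, while *Cacnb2* has 5 and 4 peaks.

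*Ryr2* and *Ryr3* encode ryanodine receptors, the channels that release calcium from the sarcoplasmic reticulum. *Ryr2* spans 554 kb at chr13:11553102-12106945 on the minus strand. Its window held 7 peaks in the control female list, 0 in control male, 1 in VEDS female and 11 in VEDS male. Of 12 regions, 6 were in both long lists. The peak printed above, 17.9 kb upstream of the gene, was the strongest at any of the 10 genes in the VEDS male list and in the control female list. In the VEDS male list (chr13:12124861-12125524) it ranked 607 of 41444, with a −log10 q of 79.1, a fold enrichment of 15.8 and a pileup of 94. In the control female list (chr13:12124883-12125427) it ranked 1380 of 21176, with 26.7, 11.7 and 35. In the VEDS female list (chr13:12125061-12125442) it ranked 439 of 504, with 1.67, 4.34 and a pileup of 5, and it was the only peak of that library at the 10 genes. *Ryr2* is the nearest annotated gene start to all 3. Ordered by −log10 q, it fell outside the 504 strongest peaks of either long list. A further region, 7962 bp upstream in the control female list and 7972 bp in the VEDS male, had −log10 q values of 9.08 and 16.5.

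Within *Ryr2* the peaks were gathered toward the 5′ end. All 13 peaks of the long lists in the gene body had their summits within 119 kb of the gene start, and the remaining 435 kb had none. Those in introns were all in intron 1, which is 160 kb long or 29.0% of the gene. Side by side in this intron, with VEDS male summits 35211 and 36022 bp from the gene start, stood the 2 strongest peaks of the gene body. The one at chr13:12070661-12071147 had a −log10 q of 8.02 (control female) and 24.2 (VEDS male), and the one at chr13:12071530-12071858 had 6.97 and 22.0. The promoter, at the CpG-rich first start cluster (GC content 77.4%), was weaker, with a −log10 q of 4.32 and a pileup of 9 in the control female list and 12.3 and 24 in the VEDS male. A second VEDS male peak at chr13:12105963-12106159 lay 300 bp from that cluster (4.92). The other 8 clusters, deep in the gene and with 2 coding transcripts between them, had no peak.

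*Ryr3*, at chr2:112631355-113217096 on the minus strand and 586 kb long, had 0 peaks in each of the 4 lists. The nearest peak to it was 27.5 kb away in both long lists. Its first start cluster has a GC content of 70% and 45 CpG in 500 bp. The 2 ryanodine receptor genes are thus of like length and differed by 11 peaks to 0 in the VEDS male list.

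*Atp2a2* encodes SERCA2, the pump that refills the sarcoplasmic reticulum. It spans 48.7 kb at chr5:122453513-122502225 on the minus strand, and its window held 3 peaks in the control female list, 0 in control male, 0 in VEDS female and 7 in VEDS male. Its 5 transcripts start in 1 cluster of high GC content (79%), which had a peak in both long lists. The control female peak at chr5:122502202-122502527 had a −log10 q of 7.39 and a pileup of 14, and the VEDS male peak at chr5:122502142-122502754 had 23.1 and 40. Inside the gene the only peak was in intron 5, in the VEDS male list (chr5:122481962-122482178, 11.3). The strongest peak of the window, downstream at chr5:122439353-122440333 (14.6 and 33.4), is the promoter of *Anapc7*, a subunit of the anaphase-promoting complex. Another downstream peak, at chr5:122447747-122448219, was in both lists with 6.22 and 16.3. The VEDS male peak farthest upstream, at chr5:122521633-122522453 (17.3), lies 19.4 kb from the gene, close to the 20 kb limit, and 94.4% of its bases are masked as repeats. The nearest peaks beyond the limit were 22.0 kb from *Atp2a2* in the control female list and 21.9 kb in the VEDS male.

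*Pln* encodes phospholamban, a small membrane protein that inhibits SERCA2 until it is phosphorylated. It spans 8.32 kb at chr10:53337667-53345987 on the plus strand and had 0 peaks in the control female list, 0 in control male, 0 in VEDS female and 1 in VEDS male. That peak, printed above, lies 967 bp upstream of the single start cluster. It had a −log10 q of 5.15, a fold enrichment of 5.18 and a pileup of 11 fragments, and it ranked 32330 of 41444. In the control female list the nearest peak to *Pln* was 33819 bp away.

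*Atp2b4* encodes PMCA4, a pump that expels calcium across the plasma membrane. It spans 101.6 kb at chr1:133699457-133801041 on the minus strand. Its window held 5 peaks in the control female list, 0 in control male, 0 in VEDS female and 9 in VEDS male, and all 5 of the former overlapped one of the latter. Its first start cluster had the strongest promoter peak of the 10 genes in both long lists. In the control female list (chr1:133800955-133801163) it had a −log10 q of 14.7, rank 5216 and a pileup of 19, and in the VEDS male list (chr1:133800855-133801299) 47.1, rank 3406 and 61. The second cluster, 47.5 kb inside the gene and used by 4 coding transcripts, had no peak within 500 bp in any list. Intron 1 held 2 control female and 4 VEDS male peaks. One of them, at chr1:133762949-133763419, stood high in the VEDS male list (31.8, rank 7014, pileup 50) and low in the control female list (5.16, rank 15824, pileup 11). A downstream peak at chr1:133685783-133686345 (14.3 and 25.8) and an intron 2 peak at chr1:133744603-133745362 (11.8 and 23.9) were in both lists, as was one in intron 1 at chr1:133777710-133778073 (7.72 and 20.2).

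*Casq2* encodes calsequestrin 2, which buffers calcium inside the store. At chr3:102086415-102146514 on the plus strand it had 0 peaks in each of the 4 lists. A strong peak stood just beyond the 20 kb limit, 22.8 kb downstream of the gene in both long lists (−log10 q of 21.3 and 30.5). That peak lies 2335 bp (control female) and 2319 bp (VEDS male) from a start of *Vangl1*, a planar cell polarity gene.

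*Stim1* encodes the sensor of the endoplasmic reticulum that opens ORAI channels when the store is empty. It spans 170 kb at chr7:102267806-102437319 on the plus strand. Its window held 6 peaks in the control female list, 0 in control male, 0 in VEDS female and 9 in VEDS male. The CpG-rich first start cluster (GC content 69.2%) had 2 peaks in each long list. The upstream one was at chr7:102267229-102267461 in the control female list (−log10 q of 4.95, rank 16198, pileup 10) and at chr7:102267116-102267600 in the VEDS male (39.9, rank 4794, pileup 49). The one at the start itself was at chr7:102267621-102267807 (4.67, pileup 10) and chr7:102267773-102267914 (3.75, pileup 14). Both peaks thus stood low in the control female list, while in the VEDS male list the upstream one stood high and the other low. The long lists differ in depth, with a median pileup ratio of 2.47 over all shared peaks. The upstream summits also differ in position, at chr7:102267389 (control female) and chr7:102267232 (VEDS male). Those at the start itself differ as well, at chr7:102267668 (control female) and chr7:102267856 (VEDS male). A difference in this promoter between the libraries was not tested. Intron 1, 85.9 kb long, held 2 peaks in each list, of which chr7:102337956-102338424 was the higher (6.74 and 15.9). The other 3 start clusters had none. The strongest peak of the window, chr7:102441487-102441876 downstream (26.4 and 55.7), is the promoter of *Rrm1*, a subunit of ribonucleotide reductase. A peak 16.8 kb upstream (5.34 and 11.7) and a VEDS male peak 9397 bp upstream (7.78) lie within 3 kb of a start of *Rhog*, a small GTPase.

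**Figure D2:**
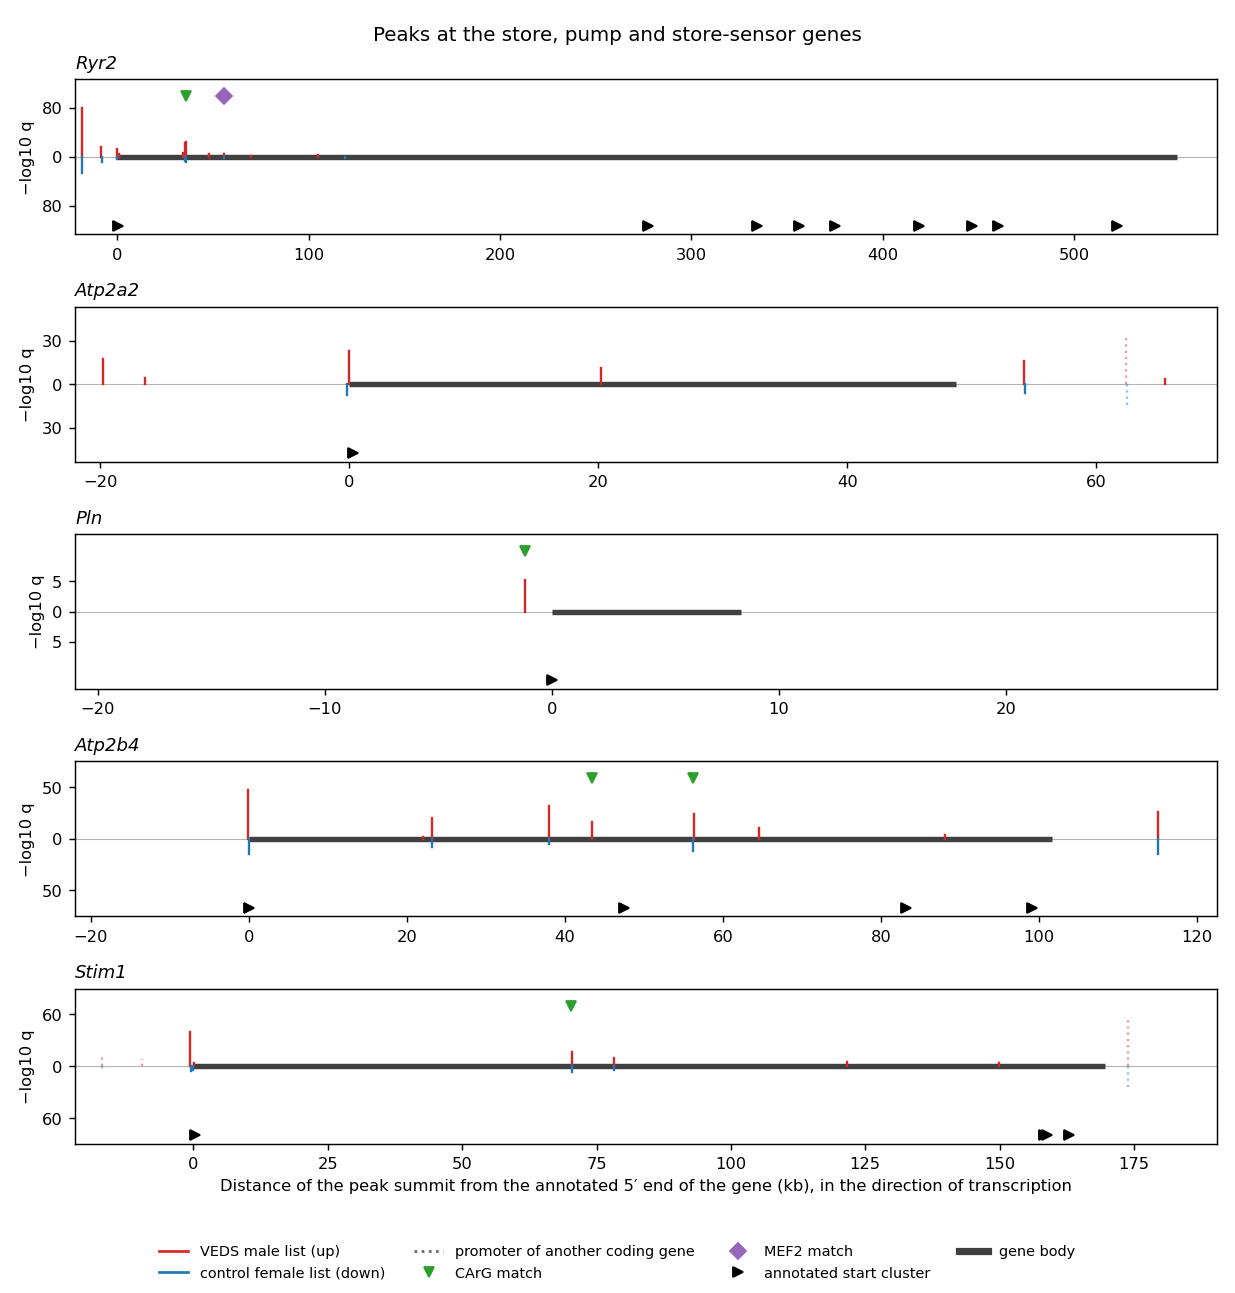
Peaks of the long lists at *Ryr2*, *Atp2a2*, *Pln*, *Atp2b4* and *Stim1*, drawn by distance from the 5′ end of the gene (kb, horizontal) and −log10 q (vertical; VEDS male up, control female down). The *Ryr2* peak 17.9 kb upstream reaches a −log10 q of 79.1 and the 3′ part of that gene is empty, and the only peak at *Pln* is 5.15 high.

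Promoter peaks, taken as peaks within 3 kb of any start of the gene, were listed at 6 of the 10 genes for control female aorta, at 0 for control male, at 0 for VEDS female and at 7 for VEDS male. Over all protein-coding genes the shares were 47.4%, 1.56%, 1.49% and 58.5%. The narrower definition by start clusters gave less. Of 48 clusters, 5 had a peak within 500 bp in the control female list, 0 in control male, 0 in VEDS female and 8 in VEDS male. Of 24 clusters with a coding transcript, 7 had one in the VEDS male list. The share over the start clusters of all protein-coding genes was not computed. These cluster counts were therefore not read as high or low. All 5 clusters with a peak in the control female list had one in the VEDS male list as well. At *Ryr2*, *Atp2b4* and *Stim1* it was the most 5′ cluster, and no internal cluster of these genes had a peak. At *Cacna1c* and *Cacnb2* the clusters with a peak lay inside the annotated gene.

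**Figure D3:**
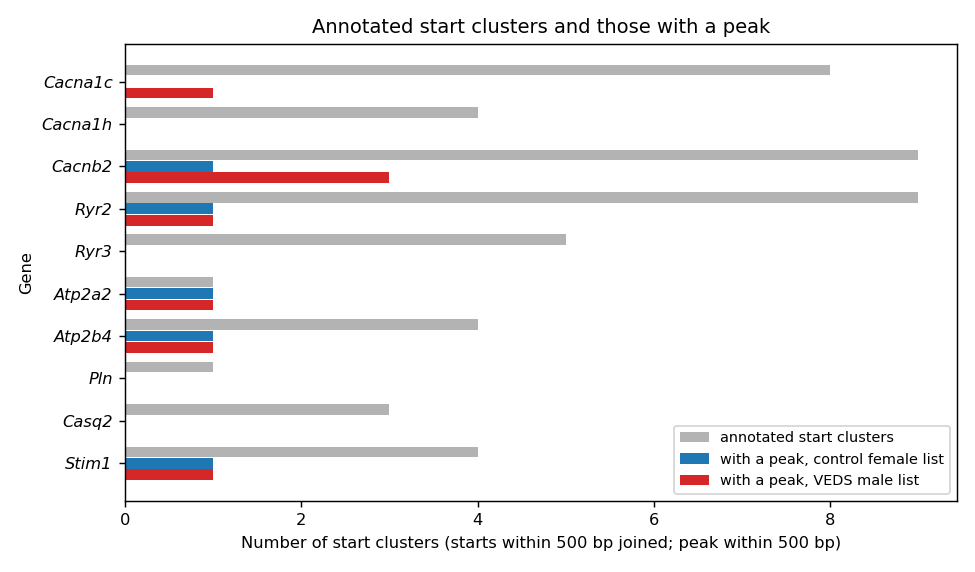
Number of annotated start clusters for each of the 10 genes (gray) and of those with a peak within 500 bp in the control female list (blue) and the VEDS male list (red). *Cacnb2* has 3 of 9 clusters with a peak in the VEDS male list, *Cacna1c* 1 of 8, and *Cacna1h*, *Ryr3*, *Pln* and *Casq2* have none.

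Set against length, the genes differed by several fold. In the VEDS male list *Atp2a2* had 7.89 peaks per 100 kb of window, *Atp2b4* 6.36, *Cacna1c* 5.24, *Stim1* 4.30, *Pln* 2.07, *Ryr2* 1.85 and *Cacnb2* 1.18. The order in the control female list was *Atp2b4* with 3.53, *Atp2a2* with 3.38, *Stim1* with 2.86, *Cacna1c* with 2.16, *Ryr2* with 1.18 and *Cacnb2* with 0.94. Over all protein-coding genes the median was 1.53 in the control female list and 2.42 in the VEDS male, and over the 704 genes with windows of at least 300 kb it was 0.31 and 0.72. The median of the 10 genes was 1.06 and 1.96. *Cacna1c*, the longest, stood at the 62.2nd percentile of all genes in the control female list and the 74.0th in the VEDS male, while *Ryr2* stood at the 44.5th and 40.7th. These percentiles are not matched for length. For windows of at least 300 kb the upper quartile was 0.91 in the control female list and 2.03 in the VEDS male. *Cacna1c* lay above both values, and *Ryr2* lay above the first and below the second. The spread between neighbours in these orders has no replicate.

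**Figure D4:**
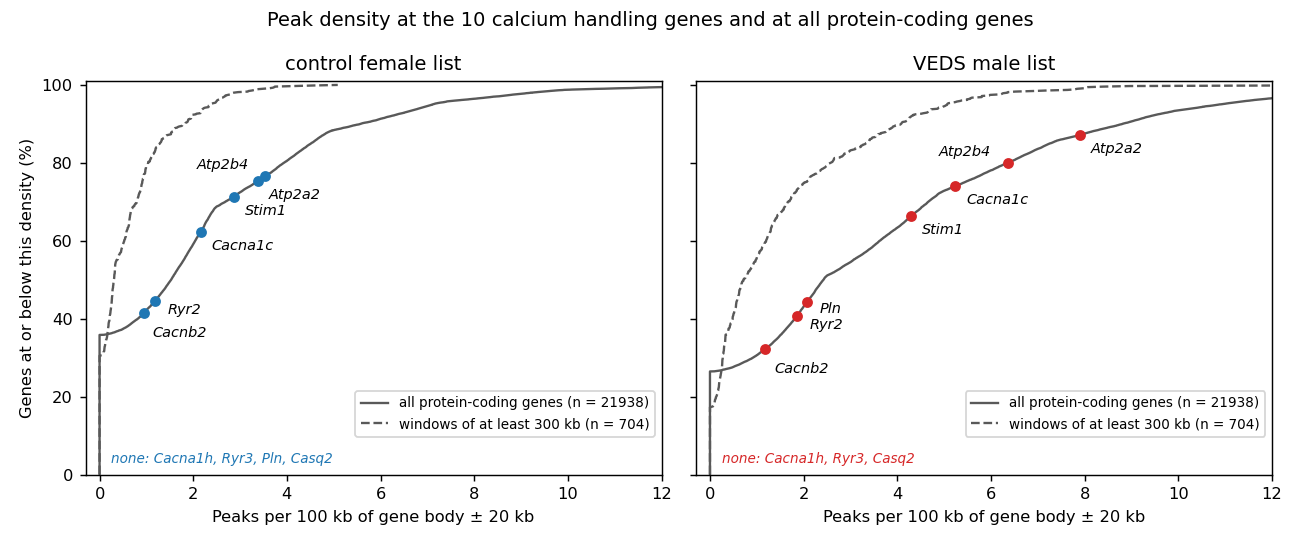
Cumulative share of protein-coding genes (%, vertical) by peaks per 100 kb of window (horizontal) in the control female (left) and VEDS male (right) lists, for all genes and for windows of at least 300 kb, with the calcium handling genes as points. *Atp2a2* and *Atp2b4* are the densest in both lists, and *Cacna1h*, *Ryr3* and *Casq2* have no peak in either.

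The lists were then compared region by region. Of the 39 control female peaks, 37 overlapped a VEDS male peak (94.9%, 83.1% to 98.6%), and over all control female peaks the share was 95.0%. Of the 76 VEDS male peaks, 37 overlapped a control female peak (48.7%, 37.8% to 59.7%), against 47.6% of all VEDS male peaks. The shares for the calcium handling genes were thus those of the lists as a whole. They followed the rank of a peak in its list. When the VEDS male list was split by −log10 q into 5 equal parts, 6 of 6 peaks at these genes in the highest part were also in the control female list, 20 of 23 in the next, then 5 of 12, 4 of 15 and 2 of 20. Over all VEDS male peaks the shares in the 5 parts were 97.6%, 75.1%, 39.6%, 18.1% and 7.53%.

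In the 37 shared regions the pileup was higher in the VEDS male list, with a median ratio to the control female list of 2.38 and a range of 1.40 to 4.90. Over all 19996 shared peaks the median ratio was 2.47 and the 5th and 95th percentiles were 1.50 and 3.92. Each library had 1 measurement, so that these ratios have no replicate. The ratio was highest at the upstream *Stim1* promoter peak (10 and 49 fragments, 4.90), followed by the intron 1 peak of *Atp2b4* (11 and 50, 4.55), and both lay above the 95th percentile of all shared peaks. By definition 5% of all shared peaks lie above that value, so these peaks were not read as unusual. The other *Stim1* promoter peak had the lowest ratio (10 and 14 fragments, 1.40), below the 5th percentile. At both *Stim1* promoter peaks the summits differ in position between the lists, so each ratio compares pileups at different positions. The 39 regions in the VEDS male list alone had pileups of 8 to 36 with a median of 14, and the shared regions had 12 to 94 with a median of 31. Divided by the median ratio of all shared peaks, the former correspond to a median of 5.66 fragments, with a range of 3.23 to 14.6. In the control female library the lowest pileup listed was 5 and the median of all peaks 14. The part of depth in the absence of these regions from the control female list was not tested.

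**Figure D5:**
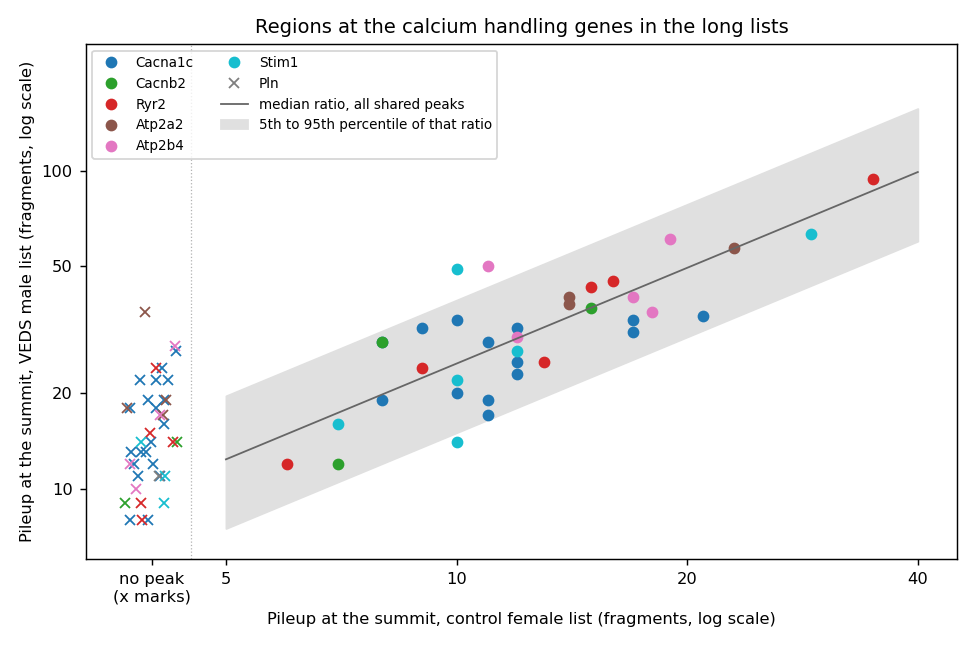
Pileup at the summit (fragments, log scales) in the control female list (horizontal) and the VEDS male list (vertical) for the shared regions (circles) and, at the left, for regions of the VEDS male list alone (crosses, spread sideways for legibility), colored by gene. Most circles lie in the gray band of all shared peaks (ratio 1.50 to 3.92). Above it lies 1 peak each of *Stim1* and *Atp2b4*, and below it another *Stim1* peak (1.40).

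CArG and MEF2 matches were then searched in the 300 bp around each summit. The CArG box was taken as CC, then 6 bases of A or T, then GG, and the MEF2 site as C or T, TA, 4 bases of A or T, TA, and A or G. Each pattern equals its own reverse complement as a pattern, so a single scan covers both strands. In the control female list 2 of 39 windows held a CArG match (5.13%, 1.42% to 16.9%) and 2 held a MEF2 match, and in the VEDS male list 7 of 76 held a CArG match (9.21%, 4.53% to 17.8%) and 5 a MEF2 match (6.58%, 2.84% to 14.5%). Over all windows the CArG shares were 3.02% and 3.09%, and the MEF2 shares 5.55% and 5.79%. The MEF2 counts over all windows were near the background. The CArG share in the VEDS male list was above that of all windows but rests on 7 windows, and with windows of 150 bp the count was 4. Among peaks farther than 3 kb from any start, 6 of 54 in the VEDS male list held a CArG match (11.1%, 5.19% to 22.2%), against 3.94% of all such peaks. The corresponding control female count was 2 of 26 (7.69%, 2.14% to 24.1%) against 4.34%. For MEF2 the shares of such peaks were below the background. They were 1 of 26 (3.85%, 0.682% to 18.9%) against 9.33% in the control female list and 3 of 54 (5.56%, 1.91% to 15.1%) against 8.10% in the VEDS male. The intervals treat peaks as independent, although 34 of the 76 VEDS male peaks are at *Cacna1c* alone. The genes were also chosen with earlier results known, so no CArG or MEF2 interval was read as a test against the background. No window held both a CArG and a MEF2 match, and the share of such pairs over all windows was not computed. A match is a string of letters and was not read as a bound site.

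The CArG matches lay at 5 genes. They are given with 20 bases on each side, on the strand of the gene, and the capitals mark the box. All but the *Pln* match, which is shown above, are in introns. The pair from *Cacna1c* has the same 10 letters, and so does the pair from *Ryr2* and *Atp2b4*.
Cacna1c intron 1, chr6:119086028-119086077: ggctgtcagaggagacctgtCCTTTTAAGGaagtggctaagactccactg
Cacna1c intron 9, chr6:118719041-118719090: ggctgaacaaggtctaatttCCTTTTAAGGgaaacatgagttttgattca
Ryr2 intron 1, chr13:12070771-12070820: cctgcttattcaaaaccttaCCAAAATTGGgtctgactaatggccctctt
Atp2b4 intron 2, chr1:133744794-133744843: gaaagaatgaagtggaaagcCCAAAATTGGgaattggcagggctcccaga
Atp2b4 intron 1, chr1:133757548-133757597: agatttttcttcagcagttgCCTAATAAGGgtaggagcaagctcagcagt
Stim1 intron 1, chr7:102337988-102338037: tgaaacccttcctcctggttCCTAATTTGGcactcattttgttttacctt

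The *Ryr2* and *Atp2b4* intron 2 boxes were within the summit windows of both long lists. The *Ryr2* box lay 14 bp from the control female summit and 128 bp from the VEDS male, in the higher of the paired intron 1 peaks described above. The *Atp2b4* box lay 37 and 73 bp from the summits of the peak whose −log10 q was 11.8 and 23.9. The *Stim1* box lay 144 bp from the VEDS male summit of the higher intron 1 peak, and it was inside the control female peak as well but outside its summit window. The other 4 were in VEDS male peaks with no partner. These were the *Pln* box 1 bp from its summit, the *Cacna1c* boxes 30 bp (intron 1) and 35 bp (intron 9) from theirs, and the *Atp2b4* intron 1 box at 43 bp. The −log10 q of the peaks with a *Cacna1c* box was 10.4 (intron 1) and 12.4 (intron 9), and that of the *Atp2b4* intron 1 peak 16.0.

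The MEF2 matches lay at *Cacna1c*, *Cacnb2* and *Ryr2*. Besides the *Cacnb2* site shown above, they are given in the same way, with capitals for the site.
Cacna1c intron 3, chr6:118884403-118884452: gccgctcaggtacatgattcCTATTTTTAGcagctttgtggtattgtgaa
Cacna1c intron 10, chr6:118708719-118708768: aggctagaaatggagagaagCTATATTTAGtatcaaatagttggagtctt
Cacnb2 intron 2, chr2:14808138-14808187: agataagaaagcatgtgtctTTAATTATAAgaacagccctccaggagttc
Ryr2 intron 1, chr13:12051195-12051244: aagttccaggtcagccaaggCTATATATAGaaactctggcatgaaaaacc

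The *Cacnb2* site printed with its peak lay at the control female summit (0 bp) and 14 bp from the VEDS male summit, and it was the only MEF2 match inside a peak of both long lists. The *Cacna1c* sites were in VEDS male peaks with no partner, with −log10 q values of 9.51 (intron 3) and 4.43 (intron 10). The second *Cacnb2* site lay 117 bp from a VEDS male summit and outside the peak itself. The *Ryr2* site was within the summit windows of both lists but inside the control female peak alone, where 94.6% of the bases are masked as repeats, and it lies in a peak of −log10 q 2.49 (control female) and 4.34 (VEDS male). That peak is 797 and 856 bp from the start of *Gm47493*, which is not protein-coding, and 55201 and 55260 bp from the nearest start of *Ryr2*.

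AP-1 sites, taken as TGA, C or G, then TCA, were counted for comparison. They lay in 9 of 39 control female windows (23.1%, 12.6% to 38.3%) and 19 of 76 VEDS male windows (25%, 16.6% to 35.8%), and in 11.6% of all windows of either list. Among peaks farther than 3 kb from any start, 18.7% of all control female and 15.5% of all VEDS male windows held one. At the 10 genes 66.7% (control female) and 71.1% (VEDS male) of the peaks were that far, against 43.3% and 53.3% of all peaks. The AP-1 share of these far peaks at the 10 genes was not computed. The shares of 23.1% and 25% against 11.6% are thus not matched for location and were not read as an excess at these genes. Of the 79 regions, 19 had an AP-1 match, with 10 at *Cacna1c*, 5 at *Ryr2*, 2 at *Atp2a2*, 2 at *Atp2b4* and none at *Cacnb2*, *Pln* or *Stim1*. At *Ryr2* these included both upstream regions, among them the one listed in 3 libraries. No window held an AP-1 and a CArG match together (0 of 76 in the VEDS male list, with an upper Wilson bound of 4.81%). An AP-1 and a MEF2 match lay together in 3 VEDS male windows. The shares of such pairs over all windows were not computed, so these counts were not read as high or low.

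The remaining genes of the pathway were counted from lists that did not include the 10 genes, 62 of 63 of which matched a gene by symbol. A peak lay in the window of 55 in the control female list, 1 in control male, 1 in VEDS female and 58 in VEDS male. Over all protein-coding genes the shares with a peak were 64.1% and 73.5% in the long lists (control female first) and 4.61% and 3.20% in the short lists (control male first), and the shares with a promoter peak in the long lists were 47.4% and 58.5%. Promoter peaks lay at 36 and 47 of the 62 pathway genes in the 2 long lists. Among voltage-gated channel subunits, 13 of 15 had one in the control female list and 15 in the VEDS male, with promoter peaks at 5 and 10. For store release channels and their partners the counts were 10 and 11 of 12, with promoter peaks at 8 and 10, and for pumps and exchangers 9 and 9 of 11, with 4 and 6. For store-operated and receptor-operated entry they were 10 and 10 of 11, with 6 and 8. The promoter counts of the channel subunits and of the pumps and exchangers were below the share of all protein-coding genes in the control female list, and in the VEDS male list that of the pumps and exchangers was near it. All 13 genes of calcium binding proteins and their effectors had a promoter peak in both long lists. The peaks of the short lists were at *Calu*, which encodes a calcium binding protein of the secretory pathway, in the control male library, and at *Camk2g*, a calmodulin-dependent kinase, in the VEDS female. *Trdn*, *Sln*, *Mrln* and *Trpc6* had no peak in any list. The first 3 of these encode triadin, sarcolipin and myoregulin, which are proteins of the striated muscle store, and *Trpc6* encodes a receptor-operated cation channel.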

How the data were processed

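ATAC-seq was performed on 4 libraries of mouse aortic nuclei. The authors aligned reads to mm10 (GRCm38), excluded blacklisted regions and called narrow peaks with MACS2 in each library, after duplicate removal that used the barcodes and correction for the Tn5 cut. The aligner, fragment extension and peak threshold are not given in the sources used here. Of the deposited columns, the score is a scaled −log10 q, the fold enrichment is a ratio of the summit to the background around it, and the 2 columns of −log10 p and −log10 q come from the peak caller, as deposited by the authors. The lowest −log10 q was 1.30 to 1.32, and no such value was used across lists beyond being set side by side.

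The 10 genes and all gene lists were chosen with earlier results of these data known. Windows were the gene body and 20 kb on each side in GENCODE vM21. Promoters reached 3 kb from a start, as in the authors' methods, and overlap was at least 1 bp. Peaks were ranked by −log10 q within a list. The pileup was the whole number of fragments that gives the deposited fold enrichment (pseudocount of 1) and the −log10 p under a Poisson distribution within 0.01. It was found for 98.9% to 99.9% of the peaks of a list, and for 100% of 500 simulated peaks. The motif scan was tested on 1000 simulated windows with planted sites and found 100%. Motif shares cover peaks on assembled chromosomes with a complete window. Named peaks were those within 3 kb of an own start, the 3 other peaks of highest −log10 q for each gene and long list, those with a CArG or MEF2 match and those of the short lists. The alternatives were −log10 q of at least 5 and 10, equal list size, the gene body alone or with 50 kb, the nearest start, promoters of 1 kb, at most 50% masked bases, overlaps of at least 50% or summits within 100 bp, summit windows of 150 and 500 bp, starts of coding transcripts alone, relaxed patterns (CArG with 1 of its A or T positions free, MEF2 with its first and last base free), and leaving out each library. Scripts ran in Python 3.11.15 (scipy 1.17.1, pysam 0.24.0, matplotlib 3.10.9, numpy 2.4.6 and pandas 2.3.3). A marker of the neuron and Schwann cell list is not reported here.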

Additional observations from a re-analysis of the deposited data

Results flagged for a closer look

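The change from control to VEDS ran in opposite directions in the 2 sexes, which is what marked the following values. In females the number of peaks in the windows of the 10 genes went from 39 in the control library to 1 in the VEDS library, a difference of -38. In males it went from 1 to 76, a difference of 75. The number of genes with a peak likewise differed by -5 in females (6 in control, 1 in VEDS) and by 6 in males (1 in control, 7 in VEDS). Each value rests on 1 library of each kind, and the difference between the sexes was not tested. The lengths of the lists moved in the same way over the whole genome, from 21176 to 504 peaks in females and from 1236 to 41444 in males, as did the median pileup, from 14 to 6 and from 7 to 22 fragments. The part of list length and depth in the difference at these genes was not tested.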

How the results depend on the processing

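Of 120 alternative values for 18 results, 78 stayed near the reported value and 42 moved. With a −log10 q of at least 5, the control female list had 3 genes with a promoter peak, 100% of its peaks in the VEDS male list and 1 MEF2 match, and the VEDS male list had 3 MEF2 matches. With at least 10, the control female list had 10 peaks, 1 gene with a promoter peak, 100% overlap, 1 CArG and 1 MEF2 match, and the VEDS male list had 37 peaks, 27% overlap and 1 MEF2 match. When each list held as many peaks as the shortest, the strongest 504, genes with a peak, peaks, promoter peaks, start clusters with a peak, CArG and MEF2 matches were all 0 in both long lists, and no overlap could be computed. Peaks assigned by the nearest start were 20 in the control female list, with 1 CArG and 0 MEF2 matches, and 38 in the VEDS male, with 1 MEF2 match. With at most 50% of bases masked, the control female list had 1 MEF2 match. With summits within 100 bp, 74.4% of control female peaks were shared. Relaxed patterns gave 5 CArG and 4 MEF2 matches in the control female list and 12 and 11 in the VEDS male. Windows of 150 bp gave 1 control female MEF2 and 4 VEDS male CArG matches, and windows of 500 bp gave 4 control female MEF2 matches. Leaving out a library in turn, the genes with a peak ranged from 1 (without the control female) to 6 in control and from 1 (without the VEDS male) to 7 in VEDS, and peaks with a CArG or MEF2 match from 0 to 4 and from 0 to 12. The causes of these moves were not tested beyond the smaller number of peaks or letters that each setting admits. No paired fit was made, since the genotypes were not tested against each other, and the differences within each sex are given above. Median pileups of 7 (control male) and 6 fragments (VEDS female) limit what the short lists can show.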
